A study of Komagataella pastoris with 12 samples.

Results

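PAS_chr3_0030 is a gene of unknown product, and PAS_chr1-4_0164 is described as similar to Pry1p and Pry3p. At 30 °C they were the genes most raised in the thermotolerant *Komagataella phaffii* strain G14, by log2 difference from the parent. The second place of PAS_chr1-4_0164 holds on a scale that adds 1 to each expression value. PAS_chr3_0030 was also the most raised at 37 °C. These 2 of the 5080 transcripts in the deposited table were found by their names, and they had been chosen by their expression in G14 against the parent. The differences between the strains are therefore given as values, with no test. The parent is a recombinant GS115 that produces a recombinant lipase, a background that G14 shares. G14 is 1 isolate, obtained from the parent by plasma mutagenesis followed by stepwise adaptation to heat. It was picked at 37 °C on a plate that shows lipase activity. The paper reports that genome sequencing found many mutations in G14 but does not list them, and they were not analysed here. Each strain was cultured in YPD medium at 30 or 37 °C and sampled in the logarithmic phase, with 3 biological replicates in each of the groups G14_37, G14_30, Parent_37 and Parent_30.

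Pry1p and Pry3p of *Saccharomyces cerevisiae* belong to the CAP superfamily, named after cysteine-rich secretory proteins, antigen 5 and the plant pathogenesis-related protein PR-1. These proteins share a secreted domain, also called the SCP domain, that is stabilised by disulfide bonds and binds sterols and other lipids. In *S. cerevisiae*, Pry1p is secreted and takes part in the export of acetylated sterols, whereas Pry3p is bound to the cell wall through a GPI anchor. A hypothetical protein is the product of a predicted reading frame to which no function has been assigned.

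In the coordinates of the deposited table, whose genome build is not given in the sources used here, PAS_chr3_0030 lay on the minus strand of chromosome 3 from 68405 to 70168. It was the 26th of 1210 transcripts on that chromosome by position. Its coding length of 1764 bp equalled its span, so the gene model holds no intron. PAS_chr1-4_0164 lay on the minus strand of chromosome 1 from 1709049 to 1709936, as number 938 of 1544 transcripts. Its coding length of 888 bp also equalled its span, and the table gives SCP as its family. Neither gene overlapped another transcript of the table.

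The 12 libraries held between 13428637 and 22047040 fragments on genes. Expression was given as FPKM, fragments scaled to gene length and sequencing depth, which already includes a scaling between libraries. The libraries of G14_37 were less alike than those of the other groups. Across transcripts, the correlation of log2(FPKM + 1) between replicates was 0.88, 0.863 and 0.959 in G14_37, and at least 0.977 in the other groups. Replicate 1 of G14_37 stood apart from replicates 2 and 3, so the main results that use it are also given without it. No targeted gene exists by which the strain labels could be checked.

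The highest levels of PAS_chr3_0030 were reached in G14. It had 209, 827 and 1382 FPKM in G14_37, against 44.4, 39.0 and 45.2 FPKM in Parent_37. At 30 °C it had 1431, 1270 and 1436 FPKM in G14_30, against 131, 140 and 157 FPKM in Parent_30. Each G14 library lay above each parent library, including G14_37 replicate 1, which held only 18.9% of the mean of the other replicates of its group. The mean of G14_37 was 18.8 times that of Parent_37, and the mean of G14_30 was 9.64 times that of Parent_30. On the log2(FPKM + 1) scale the difference was 3.83 at 37 °C, or 4.61 without G14_37 replicate 1, and 3.26 at 30 °C. By mean expression the gene ranked 200th of all transcripts in G14_37 and 142nd in G14_30, but 3719th in Parent_37 and 1304th in Parent_30. The replicates of G14_30 and of both parent groups differed by at most 1.2 times. Those of G14_37 differed by 6.61 times, and their SD of 1.41 on the log2 scale exceeded that of 98.03% of transcripts, where the median transcript had an SD of 0.25.

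PAS_chr1-4_0164 was also higher in G14 at both temperatures. It had 364, 577 and 388 FPKM in G14_37, against 78.0, 83.9 and 92.2 FPKM in Parent_37. At 30 °C the levels were 531, 463 and 460 FPKM in G14_30, against 91.2, 88.7 and 94.2 FPKM in Parent_30. The lowest G14 library thus lay well above the highest parent library at both temperatures. The means were 443 ± 117 FPKM in G14_37, 485 ± 39.7 FPKM in G14_30, 84.7 ± 7.16 FPKM in Parent_37 and 91.4 ± 2.76 FPKM in Parent_30 (SD, n = 3 each). The mean of G14_37 was 5.23 times that of Parent_37, and the mean of G14_30 was 5.31 times that of Parent_30, with log2 differences of 2.35 and 2.39. Both genes had libraries of the strains that did not overlap at 37 and at 30 °C, as did 58.3% and 59.5% of all transcripts. At least 838 fragments were counted on PAS_chr3_0030 and at least 909 on PAS_chr1-4_0164 in a library, so that the counting error was at most 3.45%.

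**Figure D1:**
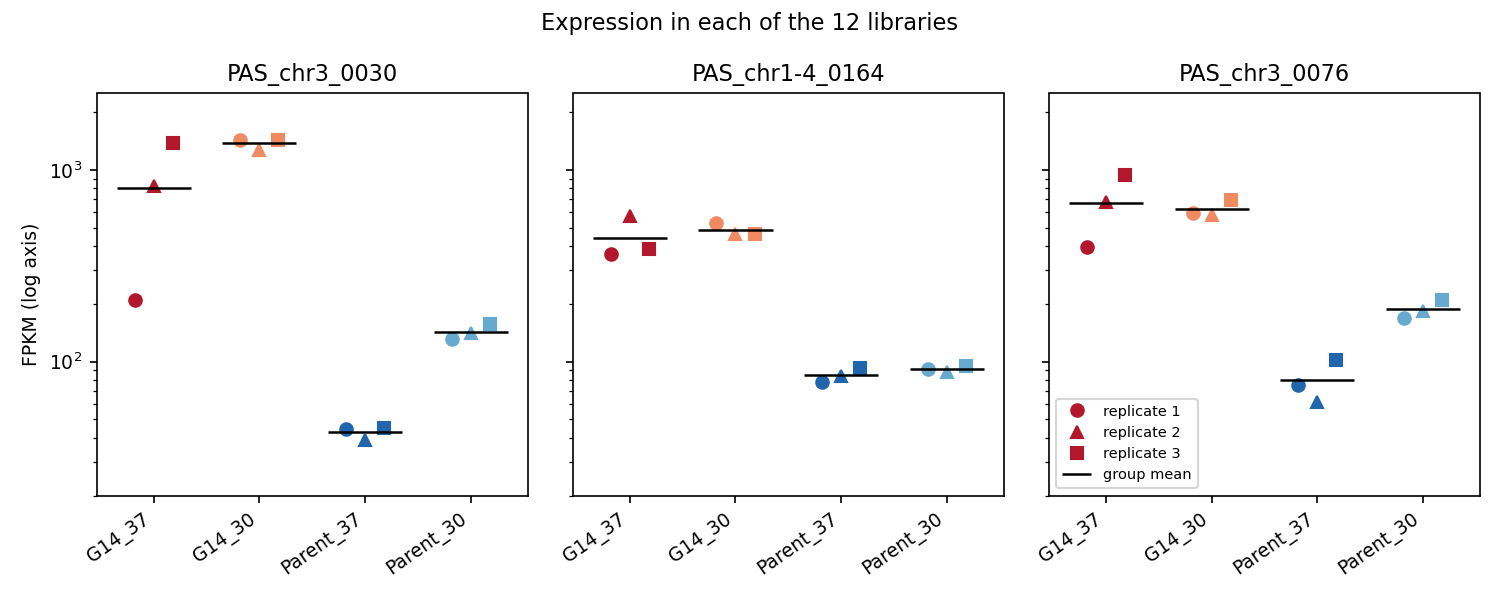
FPKM (log axis) of PAS_chr3_0030, PAS_chr1-4_0164 and the second gene described as similar to Pry1p and Pry3p, PAS_chr3_0076, in each library of the 4 groups. Symbols mark the replicate and bars the group mean. G14_37 replicate 1 had 209 FPKM of PAS_chr3_0030, the lowest of its group, and still lay above the 157 FPKM of the highest parent library.

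PAS_chr3_0030 ranked first by log2 difference at both temperatures, whereas PAS_chr1-4_0164 ranked second at 30 °C and 13th at 37 °C. At 30 °C the next genes were PAS_chr4_1001, at 2.39, and PAS_chr1-4_0330, at 2.05, both of unknown product. PAS_chr4_1001 averaged 87.8 FPKM in G14_30 and 15.5 FPKM in Parent_30, and was set apart from PAS_chr1-4_0164 only beyond the second decimal. At 37 °C, PAS_chr2-2_0199 for histone H3 followed PAS_chr3_0030 with 3.18, and PAS_chr1-4_0292 for 3-phosphoglycerate kinase, a glycolytic enzyme, with 3.09. Reads of the histone gene may be shared with its identical copy. Just below PAS_chr1-4_0164 at 37 °C stood PAS_chr3_0193, of unknown product, at 2.33, and the amino acid permease gene PAS_chr4_0287, at 2.29.

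The effect of heat was tested within each strain, in 1 fit of all 12 libraries by limma. A transcript was called when its p, adjusted by Benjamini and Hochberg's method across the 5080 transcripts, was under 0.05 and its log2 fold change was beyond 1 in either direction. These tests share libraries with the strain comparisons by which the genes were chosen. PAS_chr3_0030 was downregulated in Parent_37 vs. Parent_30, by -1.71 on the log2 scale (SE 0.51, 95% interval -2.83 to -0.60, adjusted p = 0.0127). The SE is shared by all 4 groups. G14_37 had the widest spread, with an SD of 1.41 on the log2 scale, against 0.12 in Parent_37 and 0.13 in Parent_30. A limma fit of the parent groups alone gave an SE of 0.10 and a 95% interval of -1.94 to -1.48. The mean of PAS_chr3_0030 fell to 42.9 ± 3.42 FPKM in Parent_37, against 143 ± 13.1 FPKM in Parent_30 (SD, n = 3 each), and the groups did not overlap. In the parent, 7.56% of transcripts were called lower and 14% higher under heat, and 76.4% did not overlap between the temperatures. The drop was called under each of the 20 alternative settings, with adjusted p values between 4.81e-06 and 0.0427. Among these settings, leaving out the filter and median-of-ratios scaling changed no value and so repeated the main fit.

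In G14, PAS_chr3_0030 averaged 806 ± 587 FPKM at 37 °C and 1380 ± 94.3 FPKM at 30 °C (SD, n = 3 each), and the groups overlapped. The log2 fold change in G14_37 vs. G14_30 was -1.15 (SE 0.51, 95% interval -2.26 to -0.03) and was not called (adjusted p = 0.113). With the G14 groups fitted alone by limma, the SE was 0.66 and the 95% interval -2.74 to 0.44 (adjusted p = 0.286). In this comparison 1.56% of transcripts were called lower and 2.22% higher, and 42.1% did not overlap. The value depended on single libraries of G14_37. It was -0.36 (adjusted p = 0.176) without replicate 1 and -1.72 (adjusted p = 0.0126) without replicate 3, the setting under which it was called. Over all alternatives the adjusted p lay between 0.0126 and 0.286.

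The difference in heat response, G14 minus parent, was 0.57 for PAS_chr3_0030 (SE 0.71, 95% interval -1.01 to 2.14, adjusted p = 0.573). Across all transcripts, 4.31% were called higher and 11.1% lower in this contrast. Without G14_37 replicate 1 the difference was 1.35 (95% interval 0.80 to 1.90, adjusted p = 0.00165) and was called, whereas without replicate 3 it was -0.01 (adjusted p = 0.991). The contrast is built from the strain differences by which the gene was chosen. Its intervals and adjusted p values are therefore not independent of that choice, and no conclusion is drawn from the call. Whether the strains differ in the heat response of this gene was thus not resolved with 3 libraries of G14_37. Over all alternatives the adjusted p lay between 0.00165 and 0.991.

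PAS_chr1-4_0164 was not called under heat in either strain. Its log2 fold change was -0.16 in G14_37 vs. G14_30 (SE 0.16, 95% interval -0.51 to 0.19, adjusted p = 0.472). In Parent_37 vs. Parent_30 it was -0.11 (SE 0.16, 95% interval -0.46 to 0.24, adjusted p = 0.566). Both signs turned under scaling to TPM, which gives each library the same total, to 0.06 and 0.01. The temperatures overlapped in each strain. The difference in heat response was -0.05 (SE 0.22, 95% interval -0.54 to 0.45, adjusted p = 0.892), a contrast that holds the 30 °C values by which the gene was chosen. Leaving out G14_37 replicate 1 gave a change in G14 of -0.03 (adjusted p = 0.906). Without replicate 2 it was -0.36 with an adjusted p of 0.036, a size that stayed under the fold threshold, and the adjusted p lay between 0.036 and 0.906 over the alternatives.

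**Figure D2:**
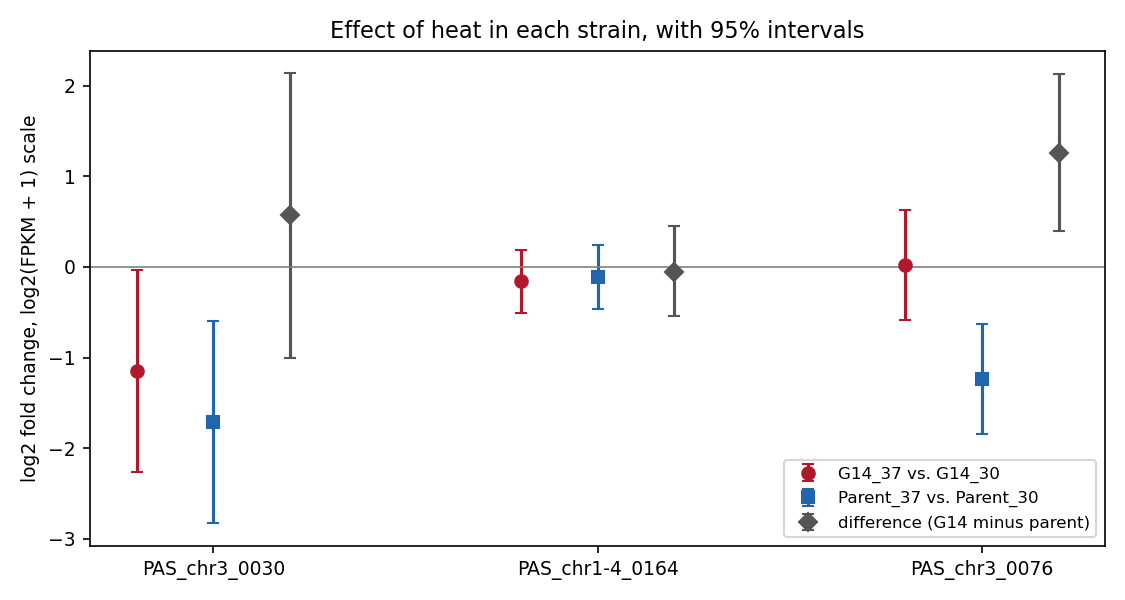
Log2 fold change of each gene under heat in G14 and in the parent, and the difference between the strains, with 95% intervals from limma. PAS_chr3_0030 fell by 1.71 in the parent, PAS_chr1-4_0164 lay near 0 in both strains, and PAS_chr3_0076 fell by 1.24 in the parent and was at 0.02 in G14.

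The neighbours of each gene, 10 on each side by position, were examined to see whether the strain difference extended along the chromosome. Around PAS_chr3_0030, 2 of the 20 neighbours were called higher and 3 lower in G14_30 vs. Parent_30, where 2.87% of all transcripts were called higher and 4.49% lower. In G14_37 vs. Parent_37, 3 neighbours were called higher and 4 lower, against 7.42% and 14.3% of all transcripts. The neighbours called higher all lay on the side of lower positions, within 10563 bases of the gene. Their differences, at most 2.37, were below its own. Without G14_37 replicate 1 the counts at 37 °C were again 3 higher and 4 lower, whereas without G14_37 replicate 3 they were 5 higher and 4 lower. The median of the 20 neighbours was 0.07 at 37 °C and 0.01 at 30 °C, against 0.05 and -0.03 for all transcripts. Scaling to TPM moved the medians of all transcripts to 0.34 at 37 °C and 0.15 at 30 °C, and then 6 neighbours were called higher and 4 lower at 37 °C, and 3 higher and 3 lower at 30 °C.

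The gene next to PAS_chr3_0030 on the lower side, PAS_chr3_0029, encodes a hypothetical protein on the opposite strand, so that the ends of both reading frames face each other across 902 bases. It had 95.6, 290 and 100 FPKM in G14_37, against 29.3, 38.5 and 29.2 FPKM in Parent_37. At 30 °C it had 203, 212 and 156 FPKM in G14_30, against 116, 114 and 102 FPKM in Parent_30. The strains did not overlap at either temperature. The log2 fold change was 2.10 (adjusted p = 0.000381) at 37 °C and 0.77 (adjusted p = 0.124) at 30 °C. In PAS_chr3_0029 the highest library of G14_37 was replicate 2, whereas in PAS_chr3_0030 it was replicate 3.

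PAS_chr3_0028, the gene after it, is similar to the allantoate permease Dal5p, which imports a nitrogen-rich product of purine breakdown in *S. cerevisiae*. It had 95.6, 250 and 92.3 FPKM in G14_37, against 23.2, 28.4 and 22.0 FPKM in Parent_37. In the cooler cultures it had 160, 166 and 141 FPKM in G14_30, against 46.8, 58.2 and 53.2 FPKM in Parent_30. It was upregulated at both temperatures, by 2.37 (adjusted p = 7.33e-05) at 37 °C and 1.55 (adjusted p = 0.00343) at 30 °C. PAS_chr3_0024, a transporter of urea and polyamines, was upregulated by 1.32 (adjusted p = 2.72e-05) at 37 °C and 1.39 (adjusted p = 6.51e-05) at 30 °C. PAS_chr3_0022, an allantoin permease gene farther along this side, had values of 0.78 and 0.10 and was not called.

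On the side of higher positions the nearest transcript, PAS_chr3_0032, began 3776 bases away and was at -0.27 at 37 °C and -0.32 at 30 °C, with neither called. The genes called on this side were all lower in G14. PAS_chr3_0042, a protein kinase involved in vacuolar protein sorting, had 31.5, 29.0 and 24.4 FPKM in G14_37, against 1010, 980 and 1020 FPKM in Parent_37. At 30 °C the gene had 24.3, 29.2 and 23.6 FPKM in G14_30, against 334, 292 and 267 FPKM in Parent_30. Its log2 fold change was -5.11 (adjusted p = 5.1e-10) at 37 °C and -3.48 (adjusted p = 5.27e-08) at 30 °C, a larger difference than that of PAS_chr3_0030 and of the opposite sign. PAS_chr3_0041, a kinase of sporulation, was called lower at both temperatures (-1.5 and -1.27), and PAS_chr3_0043, a peroxisomal membrane protein, at 37 °C (-1.57, or -2.15 without G14_37 replicate 1). At the far end of the lower side, the flavin-containing monooxygenase gene PAS_chr3_0019 was also called lower, by -4.04 at 37 °C and -1.84 at 30 °C. In a window of 50 genes around PAS_chr3_0030 the median strain difference was -0.44 at 37 °C and -0.23 at 30 °C, whereas such windows ran from -0.55 to 0.69 and from -0.23 to 0.89 along chromosome 3. Only 2.5% of these windows had a lower median at 37 °C, and 0.0861% at 30 °C.

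Around PAS_chr1-4_0164, 6 of the 20 neighbours were called higher and 2 lower in G14_37 vs. Parent_37, against 7.42% and 14.3% of all transcripts. The counts were the same without G14_37 replicate 1. At 30 °C, 1 was called higher and 1 lower, against 2.87% and 4.49% of all transcripts. The median of these neighbours was 0.34 at 37 °C and 0.41 at 30 °C, against 0.05 and -0.03 for all transcripts. Scaling to TPM gave medians of 0.63 and 0.60, with 6 called higher and 2 lower at 37 °C and 4 higher and 1 lower at 30 °C. A window of 50 genes around the gene had a median difference of 0.11 at 37 °C and 0.08 at 30 °C, above 61.5% and 90.0% of such windows on chromosome 1. These windows ran from -0.44 to 0.51 at 37 °C and from -0.24 to 0.18 at 30 °C, and the highest at 30 °C, from 1675093 to 1752861, held PAS_chr1-4_0164 itself.

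The transcript nearest to PAS_chr1-4_0164 moved in the opposite direction. PAS_chr1-4_0695, a hypothetical protein gene on the same strand, lay 145 bases beyond its end. It had 50.6, 44.7 and 35.9 FPKM in G14_37, against 584, 548 and 664 FPKM in Parent_37. Its levels at 30 °C were 42.8, 44.0 and 55.1 FPKM in G14_30, against 230, 231 and 212 FPKM in Parent_30. No G14 library came near the lowest parent library. The log2 fold change was -3.75 (adjusted p = 4.54e-09) at 37 °C and -2.23 (adjusted p = 1.66e-06) at 30 °C. On the other side, 367 bases before the start of PAS_chr1-4_0164, PAS_chr1-4_0165 for a class E protein of vacuolar sorting was not called in either strain comparison (-0.52 at 37 °C and 0.49 at 30 °C).

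The neighbour with the largest positive difference was PAS_chr1-4_0160, *HIS4*, a multifunctional enzyme of histidine biosynthesis. It had 1730, 3390 and 681 FPKM in G14_37, against 218, 208 and 254 FPKM in Parent_37. At 30 °C it had 1050, 1080 and 554 FPKM in G14_30, against 694, 470 and 358 FPKM in Parent_30. The strains overlapped at 30 °C and not at 37 °C, with log2 fold changes of 0.81 (adjusted p = 0.256) and 2.81 (adjusted p = 0.000599). GS115 is a *his4* host, commonly transformed with vectors that carry *HIS4*. The marker of the lipase construct is not given in the sources used here, and reads of a vector copy could not be told apart from those of the chromosomal gene. PAS_chr1-4_0156, a hypothetical protein gene, was upregulated at both temperatures (1.41 and 1.25). At 37 °C, PAS_chr1-4_0169 (1.01), with the bare description actin, and a mitochondrial ribosomal protein gene (PAS_chr1-4_0171, 1.22) were also called higher. So were the hypothetical protein genes PAS_chr1-4_0172 (1.41) and PAS_chr1-4_0155 (1.51), while PAS_chr1-4_0167, of unknown function, was called lower (-2.95). PAS_chr1-4_0169 was no longer called without G14_37 replicate 3 (0.94) or Parent_37 replicate 3 (0.96). Whether it is the actin gene that the paper used as RT-qPCR reference was not checked.

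**Figure D3:**
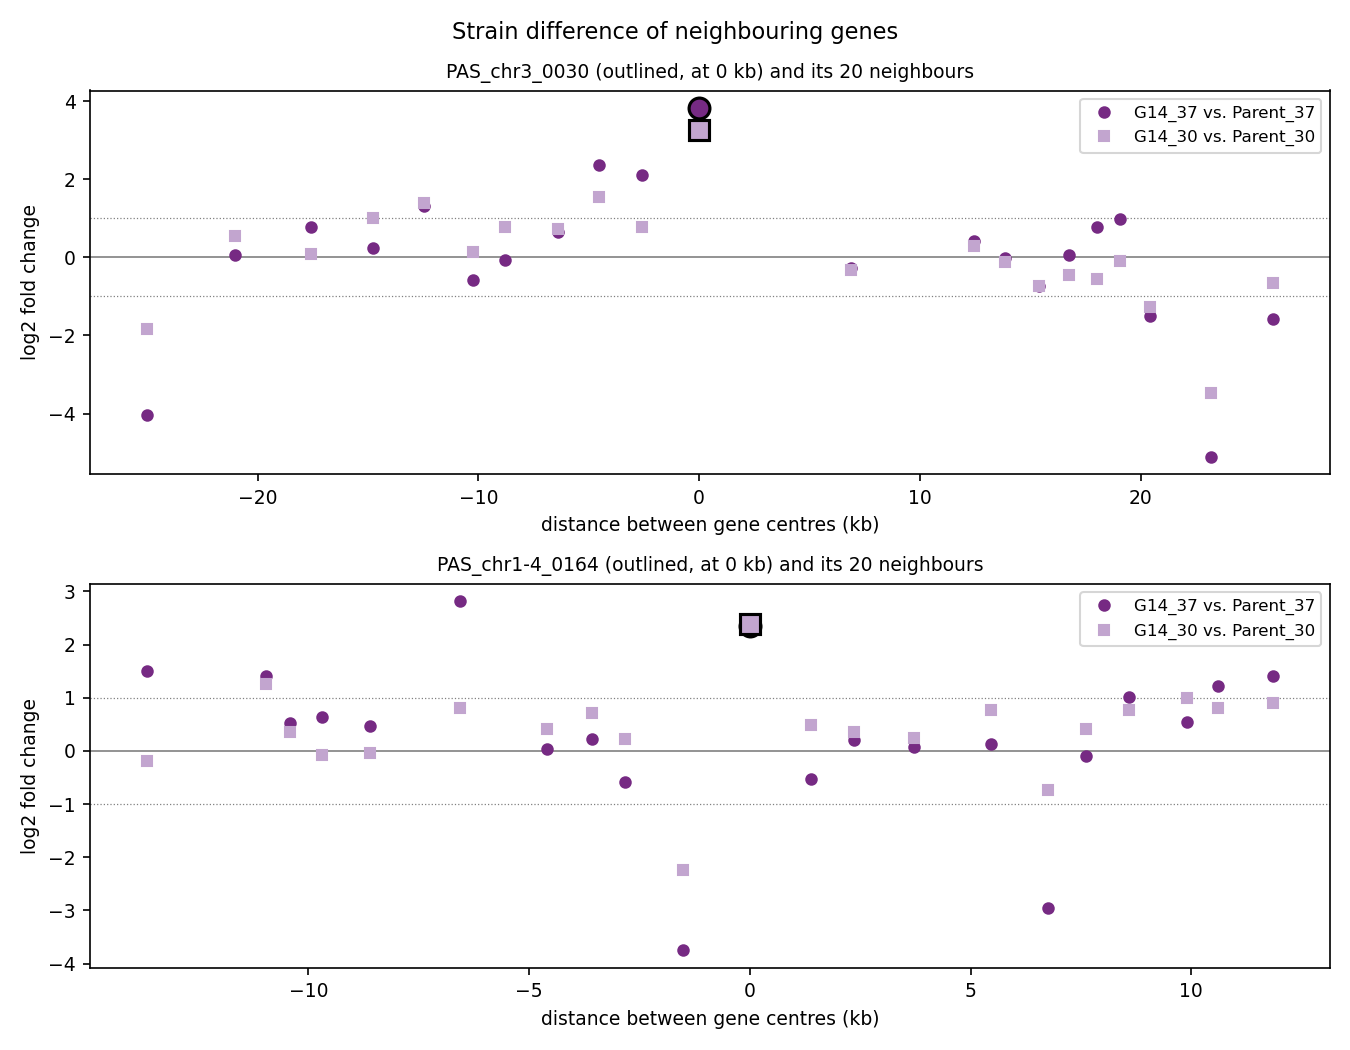
Log2 fold change between the strains at 37 °C (circles) and 30 °C (squares) against the distance between gene centres in kb, for each gene (outlined, at 0 kb) and its 20 neighbours. Dotted lines mark a log2 fold change of 1 and -1. PAS_chr3_0030 stood at 3.83 and 3.26 beside PAS_chr3_0029 at 2.10 and 0.77, and PAS_chr1-4_0164 stood at 2.35 and 2.39 beside PAS_chr1-4_0695 at -3.75 and -2.23.

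Heat responses of the neighbours were called in the parent, and none by limma in G14. Around PAS_chr3_0030, 4 neighbours were called higher and 3 lower by heat in the parent, against 14% and 7.56% of all transcripts. For heat in G14, limma called 0 of the 20, against 2.22% of all transcripts higher and 1.56% lower. An unadjusted p under 0.05 was found for 4 of the 20, against 2080 of all 5080 transcripts. Limma voom on recovered fragments called 1 of the 20, against 199 of the 5080. PAS_chr3_0029 and PAS_chr3_0028 were downregulated in the parent together with PAS_chr3_0030, by -1.75 (adjusted p = 0.0012) and -1.07 (adjusted p = 0.011). Under TPM scaling PAS_chr3_0028 was at -0.95 and was not called. In G14 they were at -0.42 and -0.25 and were not called. Their difference in heat response was 1.33 (adjusted p = 0.0544) for PAS_chr3_0029 and 0.82 (adjusted p = 0.165) for PAS_chr3_0028, and neither was called. Without G14_37 replicate 1 the difference of PAS_chr3_0029 was 1.61 (adjusted p = 0.0162) and was called. The difference itself was called for 4 of the 20 neighbours, 2 in each direction, against 4.31% of all transcripts higher and 11.1% lower.

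Around PAS_chr1-4_0164, 4 neighbours were called higher and 0 lower in Parent_37 vs. Parent_30, against 14% and 7.56% of all transcripts. Of the 20, 15 had an unadjusted p under 0.05 in either direction, against 3261 of all 5080 transcripts. Limma voom called 5 in all, against 1116 of the 5080. For heat in G14, limma called 0, against 2.22% of all transcripts higher and 1.56% lower, and limma voom also called 0, against 199 of the 5080. An unadjusted p under 0.05 was found for 9 of the 20, against 2080 of the 5080. PAS_chr1-4_0695, PAS_chr1-4_0165 and PAS_chr1-4_0167 were upregulated in the parent by 1.41, 1.41 and 1.40 (adjusted p = 1.11e-05, 3.33e-06 and 9.48e-05). The gene between the first 2 of them, PAS_chr1-4_0164 itself, was at -0.11. The difference in heat response was called for 5 of the 20 neighbours, 2 higher and 3 lower, against 4.31% and 11.1% of all transcripts.

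**Figure D4:**
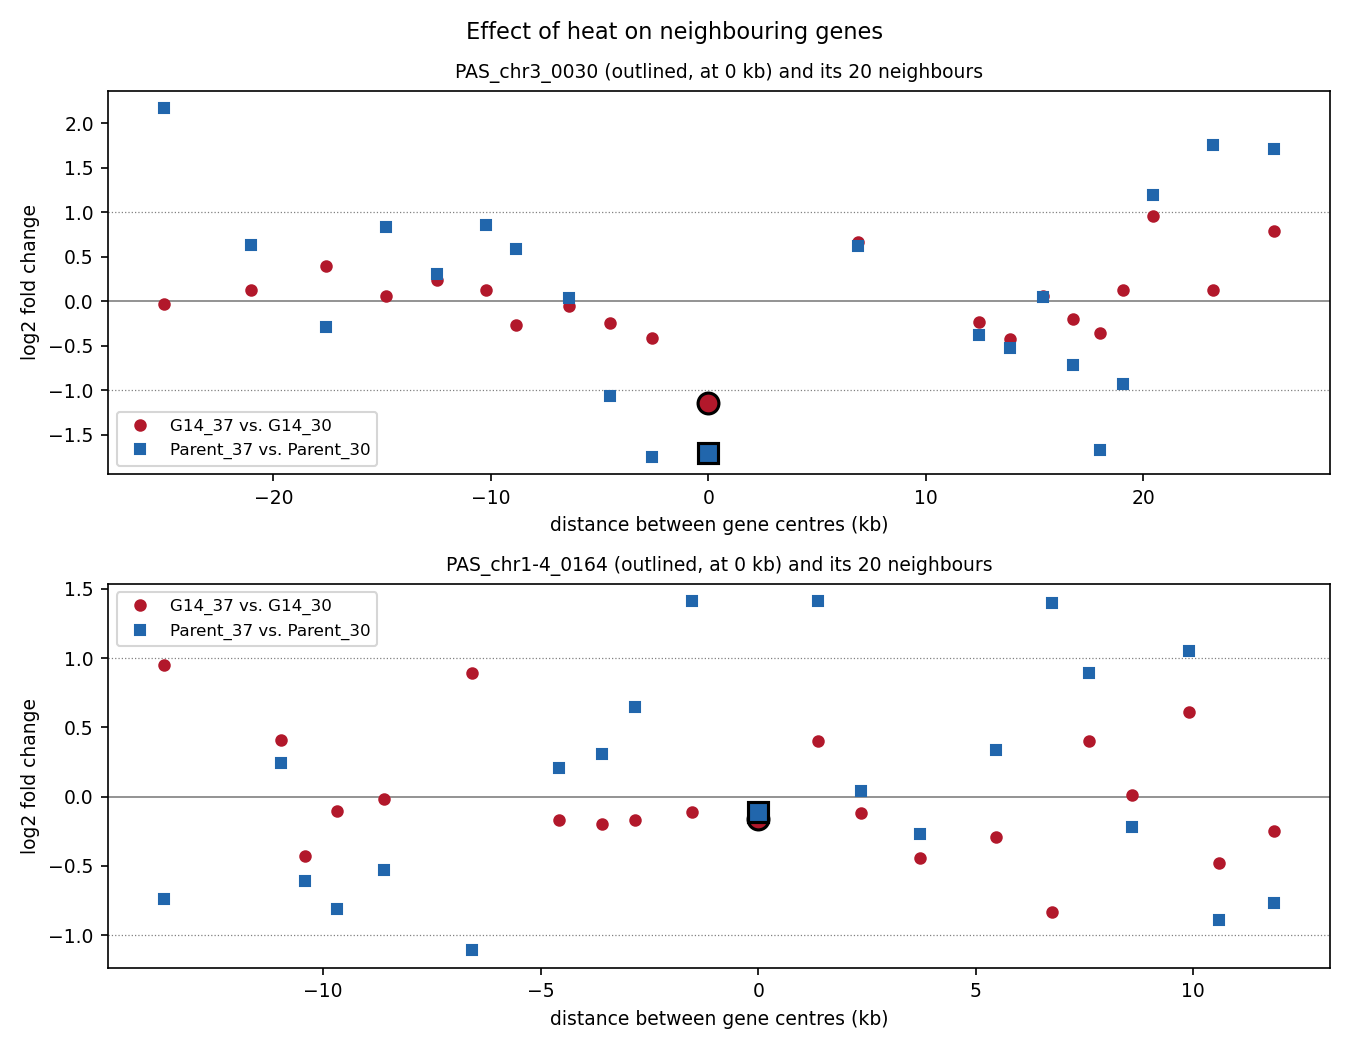
Log2 fold change under heat in G14 (circles) and in the parent (squares) against the distance between gene centres in kb, for each gene (outlined, at 0 kb) and its 20 neighbours. Dotted lines mark a log2 fold change of 1 and -1. PAS_chr3_0029 and PAS_chr3_0030 fell by 1.75 and 1.71 in the parent, and PAS_chr1-4_0164 lay at -0.16 and -0.11 between neighbours that reached 1.41 in the parent.

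A second gene of the table, PAS_chr3_0076, is described as similar to Pry1p and Pry3p and to the plant PR-1 class. It lay on the plus strand of chromosome 3 from 169095 to 170036. It had 395, 679 and 936 FPKM in G14_37, against 75.1, 61.5 and 102 FPKM in Parent_37. At 30 °C the values were 594, 579 and 698 FPKM in G14_30, against 168, 183 and 209 FPKM in Parent_30. The strains did not overlap at either temperature. It was upregulated by 3.0 (SE 0.28, adjusted p = 5.44e-06) at 37 °C, where it had rank 5 among all transcripts, and by 1.74 (SE 0.28, adjusted p = 0.000858) at 30 °C. The CAP family list, found by gene description, thus held 2 genes, both higher in G14. Of all transcripts, 7.42% were called higher at 37 °C and 2.87% at 30 °C. PAS_chr1-4_0164 had been chosen for that difference, so PAS_chr3_0076 alone does not describe the family.

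Like PAS_chr3_0030, PAS_chr3_0076 was downregulated in Parent_37 vs. Parent_30, by -1.24 (SE 0.28, adjusted p = 0.00268), and was at 0.02 in G14_37 vs. G14_30 (SE 0.28, adjusted p = 0.963), or 0.36 (adjusted p = 0.234) without G14_37 replicate 1. The difference in heat response was 1.26 (SE 0.39, 95% interval 0.40 to 2.13, adjusted p = 0.028), and it was called under 11 of 19 alternatives, with adjusted p values between 0.00119 and 0.0725. The settings that repeat the main fit are counted among the 11. In FPKM, which is scaled to gene length, PAS_chr1-4_0164 and PAS_chr3_0076 had levels of the same order in Parent_37, at 84.7 ± 7.16 and 79.7 ± 20.8 FPKM, and in Parent_30 PAS_chr3_0076 was the higher of them, at 187 ± 20.6 FPKM against 91.4 ± 2.76 FPKM (SD, n = 3 each).

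Since proteins of this family bind sterols and reside in the cell wall or the medium, the genes of sterol synthesis and of the cell wall were read beside it. Both lists were found by words in the gene descriptions. Of 20 sterol synthesis genes, 2 were called higher and 2 lower in G14_37 vs. Parent_37, against 7.42% and 14.3% of all transcripts. In G14_30 vs. Parent_30 limma called 0 higher and 1 lower, against 2.87% and 4.49%. An unadjusted p under 0.05 was found for 6 of the 20, against 2003 of all 5080 transcripts. Limma voom called 1 of the 20, against 381 of the 5080. The median was 0.34 at 37 °C and 0.07 at 30 °C, against 0.05 and -0.03 for all transcripts. Without G14_37 replicate 1, a setting added after the data were seen, the counts at 37 °C were the same and the median was 0.53. Of the 20 genes, 14 lay above 0 at 37 °C, against 2681 of all 5080 transcripts, and 11 at 30 °C, against 2346. PAS_chr1-4_0314, farnesyl pyrophosphate synthetase of the mevalonate branch, was lower at both temperatures, and was the only gene of the list called at both. It averaged 202 ± 47.2 FPKM in G14_37, against 3080 ± 227 FPKM in Parent_37, and 275 ± 9.58 FPKM in G14_30, against 608 ± 10.4 FPKM in Parent_30 (SD, n = 3 each). Its log2 fold change was -3.95 (adjusted p = 7.85e-09) at 37 °C and -1.14 (adjusted p = 0.000343) at 30 °C.

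The cell wall list of 44 genes also took in PAS_chr2-2_0437, described as a glycogen debranching enzyme. Of the 44, 3 were called higher and 9 lower in G14_37 vs. Parent_37, with a median of -0.14. These are 6.82% and 20.5% of the list, against 7.42% and 14.3% of all transcripts. With G14_37 replicate 1 left out, 3 were called higher and 5 lower, and the median was -0.03. In G14_30 vs. Parent_30 limma called 0 higher and 1 lower, against 2.87% and 4.49% of all transcripts, and the median was 0.29, against -0.03. An unadjusted p under 0.05 was found for 19 of the 44, against 2003 of all 5080 transcripts. Limma voom called 1 of the 44, against 381 of the 5080. PAS_chr2-1_0073, of the RIM101 pathway with a role in cell wall construction and the response to alkaline pH, was called lower at both temperatures (-2.91 and -1.43). Both lists held genes called in either direction at 37 °C.

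Finally, the genes with the most similar pattern over the 12 libraries were listed. These correlations describe libraries that fall at the levels of 2 strains and share the same groups, so that genes with a strain difference correlate with each other. PAS_chr3_0150, a GTP-binding protein of the rho subfamily that takes part in cell polarity, was closest to PAS_chr3_0030 (r = 0.991 of log2(FPKM + 1), n = 12). It differed between the strains by 1.18 at 37 °C and 1.08 at 30 °C. PAS_chr2-1_0773, with a role in adhesion and filamentous growth, PAS_chr1-1_0017, of unknown product, PAS_chr1-1_0018, a subunit of the FACT complex, and PAS_chr4_0214, an ADP-ribosylation factor, followed with r between 0.976 and 0.979. The strain differences of these followers were all under 1. Closest to PAS_chr1-4_0164 was PAS_chr4_0870, a hypothetical protein gene, with r = 0.992 and differences of 1.98 at 37 °C and 1.92 at 30 °C. PAS_chr3_0116 and PAS_chr3_0123, both for mitochondrial proteins, PAS_chr3_0222, a 3-hydroxyacyl-CoA dehydratase, and PAS_chr4_0869, of unknown function, followed with r = 0.984 each. PAS_chr3_0116, PAS_chr3_0123 and PAS_chr3_0150 lay in 1 stretch of chromosome 3, from 218614 to 317117. This was its window of 50 genes with the highest median strain difference at 30 °C (0.89). PAS_chr4_0869 and PAS_chr4_0870 lay close together on chromosome 4, from 1632757 to 1635076. PAS_chr3_0030 and PAS_chr1-4_0164 correlated with each other at r = 0.909, which placed PAS_chr1-4_0164 at number 110 among the genes most like PAS_chr3_0030.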

How the data were processed

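RNA-seq libraries of the parent and G14 at 30 and 37 °C (3 replicates each, n = 12) were analysed. The deposited unit is FPKM, computed by the authors from 150 bp paired-end reads mapped to a genome with PICHIAGENOME gene models. The submitters' processing notes name HISAT2 2.0.5 and featureCounts 1.5.0-p3. The kit is not stated to keep strand. FPKM times length gave whole fragments for 100.0% of transcripts in each library (tolerance 0.05), between 13428637 and 22047040 per library, and 1 fragment on 1 kb equals 0.0417 to 0.0822 FPKM. Intervals of counting cover counting error only.

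Values were taken as log2(FPKM + 1), so that fold changes of low genes are understated. A minimum mean of 1 FPKM removed no transcript. One mean per group was fitted by limma 3.58.1 with trend in R 4.3.3 (8 residual degrees of freedom), tested on simulated data, with Benjamini-Hochberg adjustment over 5080 transcripts. Tables were made with Python 3.11.15, numpy 2.4.6 and pandas 2.3.3. The study used DESeq2 on counts, which does not suit FPKM, so it was not fitted. Alternatives tried were limma voom on recovered fragments, TPM or median-of-ratios scaling, a replicate block, a pseudocount of 0.1, a filter at 10 FPKM or none, fitting only the groups compared, and leaving out each of 12 libraries in turn. The median-of-ratios factor was 1 in each library, so that this scaling and the fit with no filter repeated the main fit.

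The genes named were both members, 10 neighbours on each side, genes described as similar to Pry1p, Pry2p or Pry3p, the 5 most correlated with each member, the 2 ranked next below each member between the strains, and sterol or cell wall genes called between the strains at both temperatures in 1 direction. The members, lists and tests were chosen with earlier results of these data known. A list of transcripts outside the annotation holds positions only and was not used.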

Additional observations from a re-analysis of the deposited data

Results flagged for a closer look

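The heat response of 9 neighbours and of PAS_chr3_0076 differed between the strains in limma's test of the difference itself, G14 minus parent. The neighbours were 4 of the 20 around PAS_chr3_0030 and 5 of the 20 around PAS_chr1-4_0164. Of all transcripts, 4.31% were called higher and 11.1% lower in this contrast. Around PAS_chr3_0030 the difference was -2.20 for PAS_chr3_0019 (adjusted p = 0.000227), 1.31 for PAS_chr3_0039, a leucine synthesis enzyme (adjusted p = 0.000493), 1.06 for PAS_chr3_0040, a mitochondrial carrier (adjusted p = 0.00401), and -1.62 for PAS_chr3_0042 (adjusted p = 7.98e-05). Without G14_37 replicate 1, PAS_chr3_0040 was at 0.91 and no longer over the fold threshold, as also without G14_30 replicate 2 or Parent_37 replicate 2 (0.97 each). Around PAS_chr1-4_0164 the difference was 1.69 for PAS_chr1-4_0155 (adjusted p = 0.00402), 2.0 for PAS_chr1-4_0160, *HIS4* (adjusted p = 0.0452), -1.01 for PAS_chr1-4_0165 (adjusted p = 0.00109), -2.23 for PAS_chr1-4_0167 (adjusted p = 0.000167) and -1.52 for PAS_chr1-4_0695 (adjusted p = 0.000277). *HIS4* lost its call in 10 of the 12 fits that left out a library, with adjusted p values of 0.0576 to 0.106, and PAS_chr1-4_0165 fell to between -1.0 and -0.89 in 6 of them and under TPM scaling. For PAS_chr3_0076 the difference was 1.26 (adjusted p = 0.028), and 8 of the 12 fits that left out a library did not call it.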

How the results depend on the processing

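Between the strains, both genes stayed higher in G14 under every alternative run. Scaling to TPM moved the difference of PAS_chr3_0030 at 30 °C to 3.45, that of PAS_chr1-4_0164 to 2.64 at 37 °C and 2.58 at 30 °C, and the neighbours of PAS_chr1-4_0164 called at 30 °C to 5, against 2, since it shifts the median of all transcripts. It also turned the small heat effects of PAS_chr1-4_0164 to 0.06 in G14 and 0.01 in the parent, and their difference to 0.05. Leaving out 1 library in turn gave between -1.72 and -0.36 for the heat effect of PAS_chr3_0030 in G14 and between -0.01 and 1.35 for its difference between the strains, and between -0.25 and 0.08 for that of PAS_chr1-4_0164, whose sign is not determined. With a replicate block, the heat effects of PAS_chr3_0030 were -1.15 in G14 (adjusted p = 0.0982) and -1.71 in the parent (adjusted p = 0.0119), and no call of either gene changed. No source says that a replicate number marks a shared culture or day. Of 18 same-numbered pairs, 8 deviated together with a correlation over 0.1 (range -0.22 to 0.67) and 12 correlated best with their own number, and whether the numbers pair the libraries is not known. The neighbours called under heat in G14, 0 around each gene, came to at most 2 under any alternative. In that comparison the main fit called 2.22% of all transcripts higher and 1.56% lower.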
